A study of Sus scrofa with 9 samples.

Results

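The genes of dividing cells described here, STMN1, CDC20, CENPA, CCND2 and CCNB1, are 5 of 1889 genes that could be given a symbol, and they were followed in pig blood before and after azide. On the array they are read by 10 probes of 43603, found by gene symbol or by protein name in the probe descriptions: 2 probes each for STMN1, CDC20 and CCNB1, 1 for CENPA and 3 for CCND2. These genes were chosen by their levels on these 9 arrays, and in particular by how they differed between the 3 times, so their values are given as a description, without a test. To enter the fit a probe had to stand well above background on every array of some group, which 9 probes did and 1 CCNB1 probe did not. CENPA passed that filter through the 24 h arrays alone.

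The animals, kept free of specified pathogens, were males of the Clawn miniature pig, which is a breed used in laboratories. Blood was drawn at 6 h and at 24 h after azide had been given by mouth at 300 µg/kg, and before feeding (0 h), when no azide had been given; 3 arrays were made at each time. Azide inhibits cytochrome c oxidase of the mitochondrial respiratory chain, and the salt was not named. The label fields disagree on age, 7 months in one and 7 weeks in another. Nothing states that a replicate number marks an animal, so errors and p-values reflect the spread between these samples. There were no pigs without azide at 6 h or 24 h, and feeding, handling and hour of the day go along with the dose. The 3 scans, told apart by scan date, held 1 group each, so scan cannot be told apart from group.

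Cells that divide copy their DNA once and then separate the copies in mitosis, and each step has its own proteins. Cyclins switch on kinases at set stages: CCND2 (cyclin D2) acts in early G1, when a cell commits to divide, and CCNB1 (cyclin B1) activates CDK1 at the entry to mitosis. CENPA is the histone H3 variant that marks the centromere, STMN1 (stathmin) destabilises microtubules and is switched off by phosphorylation when the spindle forms, and CDC20 activates the anaphase-promoting complex, a ubiquitin ligase that ends mitosis. Most circulating blood cells do not divide; stathmin and cyclin D2 are also found in lymphocytes, where cyclin D2 is induced upon activation.

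The probes are 60 bases long, and those of 1 gene read separate stretches of its transcript, so that agreement between them bears on whether a value belongs to the gene. The sequences shown are those the results turn on, written 5′ to 3′ as the array files give them. The second STMN1 probe, both CDC20 probes and the second CCNB1 probe are shown whole, and the others by their first 30 bases. Capitals mark a run of 5 or more of the same base.
STMN1 probe 1: ggctctgtgaaaacatgtttgtgaaaagag
STMN1 probe 2: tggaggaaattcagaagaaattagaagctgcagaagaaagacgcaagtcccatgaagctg
CDC20 probe 1: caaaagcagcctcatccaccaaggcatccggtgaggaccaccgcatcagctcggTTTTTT
CDC20 probe 2: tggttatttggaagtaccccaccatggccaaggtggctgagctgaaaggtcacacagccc
CENPA probe 1: tactgttttacaccgattgtcctgtgttct
CCND2 probe 1: ctctctggttgtgttttgttctcttatgtt
CCND2 probe 3: tctctctcagcctttcactcttccccgaaa
CCNB1 probe 1: gccaaggctgtggcaaaggtgtaacttgtg
CCNB1 probe 2: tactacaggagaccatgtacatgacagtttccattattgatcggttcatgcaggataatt
Within the transcript records, STMN1 probe 1 starts at base 759 and probe 2 at base 159, CDC20 probe 1 at base 1543 and probe 2 at base 1350, and CCNB1 probe 1 at base 1405 and probe 2 at base 779. CCND2 probe 1 starts at base 1154 and probe 3, from the same record, at base 92. The first CDC20 probe ends in a run of T, the only such run among the probes shown whole. The files give no genome position for these probes.

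Levels are log2 processed signal minus the array's own 75th percentile, so that 0 is the 75th percentile of that array, and levels of different probes are not set against each other. On each array 43803 spots were not controls. Well above background were 42.4% to 47.8% of them at 6 h, 45.5% to 56.6% at 24 h and 39.9% to 46.6% before feeding. No spot was saturated, and 3 arrays per group limit the precision of every value. Differences are group means subtracted, with limma's standard error (SE, n = 3 per group).

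The genes did not share a time course, as the plot of levels by array shows. STMN1 was lowest at 6 h, in 2 of the 3 arrays, and at 24 h lay between its 6 h mean and its mean before feeding. CCND2 and the first CDC20 probe were lowest at 24 h on this scale, whereas with spike-in centring CCND2 probe 1 and CDC20 probe 1 were 0.088 and 0.098 higher at 24 h than at 6 h. CENPA had higher values at 6 h and higher still at 24 h, and CCNB1 and the second CDC20 probe overlapped between all times. Taken over the 9 fitted probes, 8 had a lower mean at 6 h than before feeding and 8 had a lower mean at 24 h than before feeding, CENPA being the exception both times. When arrays were centred on the 7 spike-in probes, 7 were lower at 6 h and 2 at 24 h, because that centring put the median of all 19783 tested probes 0.27 higher at 6 h and 0.99 higher at 24 h. Relative to the median of all tested probes, 8 of 9 were lower at both times. A change of centring shifts every probe of an array alike, so it cannot alter this count.

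**Figure D1:**
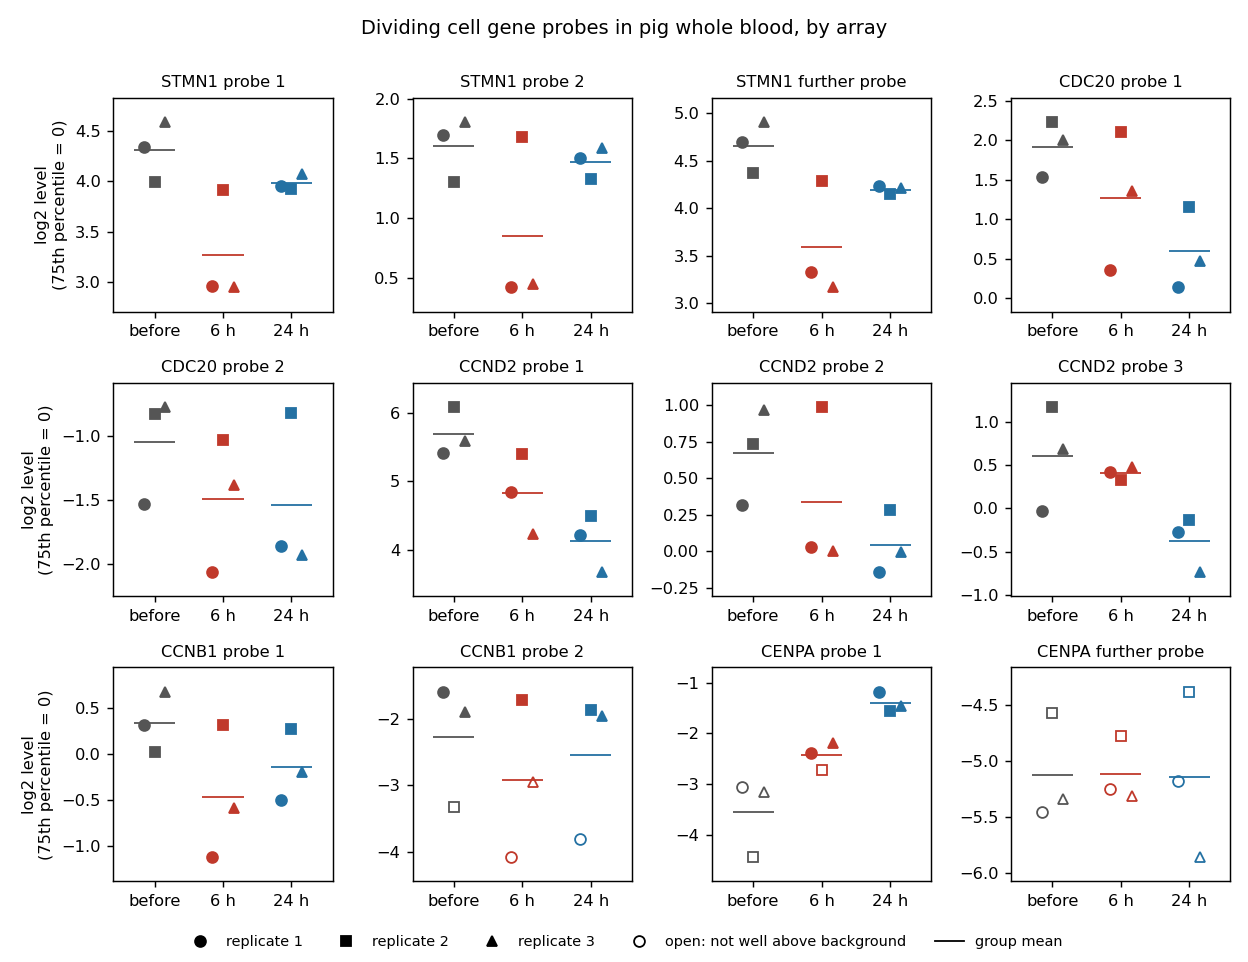
Levels of the 10 probes of STMN1, CDC20, CCND2, CCNB1 and CENPA and of 2 further probes on each of the 9 arrays, on the log2 scale with each array's 75th percentile at 0, against time. Points are arrays, shaped by replicate number, open where the probe was not well above background, and lines are group means of 3 arrays. STMN1 sits low in 2 of 3 arrays at 6 h, and on this scale CCND2 probe 1 lies lower at 24 h than before feeding and CENPA probe 1 higher; centred on the spike-in probes the CCND2 difference is -0.55.

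Of the 9 fitted probes, 2 were lower and 1 was higher at 6 h with no overlap between the groups' arrays; over all tested probes 10.6% were lower in this way and 16% higher. At 24 h against before feeding, 4 were lower and 1 was higher without overlap, against 19% and 7.5% of all tested probes. Between 24 h and 6 h, 1 was lower and 2 were higher, against 16.5% and 10%. At an adjusted p under 0.05 limma called 0 of the 9 in each comparison, and 0.0253% (5 probes) of all tested probes at 6 h; it called 0% at 24 h against before feeding and 0% between 24 h and 6 h, though at an unadjusted p under 0.05 there were 1693 lower and 1052 higher probes in the first of these and 2694 lower and 1576 higher in the second. Since these comparisons chose the genes, nothing is read from the counts. Both comparisons with before feeding share those 3 arrays, and both comparisons with 6 h share the 6 h arrays.

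The first probe of STMN1, the microtubule regulator, was at log2 levels of 2.96, 3.91 and 2.95 at 6 h, against 4.34, 3.997 and 4.59 before feeding. All arrays at 6 h lay below every array before feeding, 2 of them by about 1 log2 unit and the other, replicate 2, just below the lowest. The difference was -1.03 ± 0.32. In whole blood, fewer cells of a type and less RNA per cell cannot be told apart.

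At 24 h that probe was at 3.95, 3.92 and 4.07. These 3 arrays lay close together and above every 6 h array; 2 of them were just below the lowest array before feeding and the other was within that range. The difference was 0.71 ± 0.32 at 24 h against 6 h and -0.33 ± 0.32 at 24 h against before feeding, or 1.49 and 0.68 when centred on the spike-in probes.

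The second STMN1 probe was at 0.42, 1.68 and 0.45 at 6 h, against 1.70, 1.30 and 1.80 before feeding. Again replicates 1 and 3 were low at 6 h, and here replicate 2 lay within the range before feeding, so the groups overlapped. The difference was -0.75 ± 0.36. At 24 h the probe was at 1.50, 1.33 and 1.59, which differed by -0.13 ± 0.36 from before feeding.

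A further STMN1 probe, which the name rule does not reach but which shares a transcript record with the others, was at 3.32, 4.29 and 3.17 at 6 h, against 4.70, 4.37 and 4.90 before feeding. Its difference at 6 h was -1.06 ± 0.33 and replicate 2 was again the highest of the 6 h arrays. At 24 h it was at 4.23, 4.14 and 4.21, below every array before feeding, a difference of -0.46 ± 0.33. Over the 9 arrays the first STMN1 probe correlated with the second at Pearson r = 0.96 and Spearman rho = 0.77, and with the further probe at r = 0.99 and rho = 0.83. These points share arrays and scaling.

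The size of the STMN1 difference at 6 h depended on the arrays kept. For the first probe it was -1.35 without 6 h replicate 2, -0.88 without replicate 1 and -0.87 without replicate 3. For the second probe it was -1.16 without replicate 2, -0.54 without replicate 1 and -0.55 without replicate 3. At 24 h against 6 h the second probe differed by 1.04 without 6 h replicate 2, where it was 0.62 with all arrays.

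CCND2, the G1 cyclin, followed another course. Its first probe was at 4.84, 5.40 and 4.24 at 6 h, against 5.42, 6.08 and 5.58 before feeding. The 6 h arrays lay below every array before feeding, replicate 2 by a narrow margin, and the difference was -0.87 ± 0.36, or -0.57 without 6 h replicate 3. At 24 h it was at 4.22, 4.50 and 3.69, lower than all arrays before feeding by a wider margin. The difference was -1.56 ± 0.36 at 24 h against before feeding and -0.69 ± 0.36 at 24 h against 6 h, where the groups overlapped (-0.40 without 6 h replicate 2).

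The second CCND2 probe was at -0.14, 0.28 and -0.01 at 24 h, against 0.32, 0.74 and 0.96 before feeding. The 24 h arrays were all below those before feeding, by 0.63 ± 0.33 in the mean, although the highest and the lowest of the groups nearly met. Its 6 h arrays, at 0.03, 0.98 and 0.00, straddled the other groups.

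The third CCND2 probe was at -0.27, -0.13 and -0.73 at 24 h, against -0.03, 1.17 and 0.69 before feeding. It was lower at 24 h than on every array of the other groups, with a difference of -0.99 ± 0.33 from before feeding and -0.79 ± 0.33 from 6 h. Its 6 h levels of 0.42, 0.32 and 0.48 lay within the wide range before feeding. All 3 CCND2 probes had lower values at 24 h than before feeding on this scale, by -0.63 to -1.56, but centred on the spike-in probes the differences were -0.55 for the first, 0.38 for the second and 0.018 for the third. At 6 h only the first was free of overlap. Correlations between the CCND2 probes over 9 arrays were r = 0.81, 0.79 and 0.59.

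CDC20, the activator of the anaphase-promoting complex, had levels of 0.14, 1.16 and 0.47 at 24 h with its first probe, against 1.54, 2.23 and 2.00 before feeding. No 24 h array reached the lowest array before feeding, and the difference was -1.33 ± 0.45. At 6 h the 3 arrays spread over 0.35, 2.10 and 1.36, more widely than at the other times (SD 0.88, n = 3), and differed by -0.65 ± 0.45 from before feeding. Without 6 h replicate 1 that value was -0.19, and without replicate 2 it was -1.07. With spike-in centring the 24 h difference was -0.33.

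The second CDC20 probe gave smaller differences. It was at -1.86, -0.83 and -1.93 at 24 h, against -1.53, -0.83 and -0.78 before feeding, and -2.06, -1.03 and -1.38 at 6 h. All 3 groups overlapped, and the difference was -0.49 ± 0.40 at 24 h and -0.44 ± 0.40 at 6 h, each against before feeding. The probes correlated across arrays (r = 0.85, rho = 0.68, n = 9 arrays), but only the first one separated 24 h from before feeding. Spike-in centring turned the second probe's 24 h difference to 0.51, and leaving out 24 h replicate 2 or 3 gave -0.85 or -0.30.

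CCNB1, the mitotic cyclin, varied widely within the groups. Its first probe was at -1.11, 0.31 and -0.58 at 6 h, against 0.31, 0.02 and 0.67 before feeding, and at -0.49, 0.27 and -0.20 at 24 h. Replicates 1 and 3 at 6 h were lower than every array before feeding, and replicate 2 was within their range. The difference was -0.80 ± 0.39 at 6 h and -0.48 ± 0.39 at 24 h, each against before feeding; with spike-in centring the 24 h value turned to 0.53, and with normexp background correction the 6 h value was -0.39. Without 6 h replicate 1 the 6 h value was -0.47, and without replicate 2 it was -1.18.

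The second CCNB1 probe was well above background on 1 array at 6 h, 2 at 24 h and 2 before feeding, and was not fitted. It was at -4.07, -1.72 and -2.95 at 6 h, against -1.60, -3.32 and -1.89 before feeding, with full overlap. It followed the first probe over the 9 arrays with r = 0.83 and rho = 0.82.

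CENPA, the centromeric histone, was the only one of the 5 genes with higher means at both later times on the 75th percentile scale, and it was dim; with spike-in centring 7 of the 9 probes were higher at 24 h than before feeding. It was well above background on 2 arrays at 6 h, 3 at 24 h and 0 before feeding. Its probe was at -2.39, -2.71 and -2.18 at 6 h and at -1.18, -1.56 and -1.46 at 24 h, against -3.06, -4.43 and -3.15 before feeding. The 3 groups did not overlap, and the order was before feeding, 6 h, 24 h.

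Because the level before feeding is only a bound, the CENPA signal was at least 2.61-fold higher at 24 h than before feeding, taken from group means. At 6 h the bound from group means was 1.28-fold. That 6 h mean includes replicate 2, at -2.71 and not well above background, so no least rise is read at 6 h. The measured group means were -2.43 at 6 h and -1.40 at 24 h, against -3.54 before feeding, a mean that holds no array above background. With normexp in place of the scanner's background correction the log2 means differed by 0.18 at 6 h and 0.54 at 24 h from before feeding. Both are smaller than the bounds above, so those bounds do not hold with normexp. Between 24 h and 6 h, where both groups had arrays above background, the difference was 1.03 ± 0.37, for a probe that entered the fit through the 24 h arrays.

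The gene's name on this probe rests on similarity to a human or bovine protein. A further probe that shares its transcript record was not well above background on any of the 9 arrays, with levels of -5.86 to -4.38, so it gave no second reading of CENPA (r = -0.27 between the probes).

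**Figure D2:**
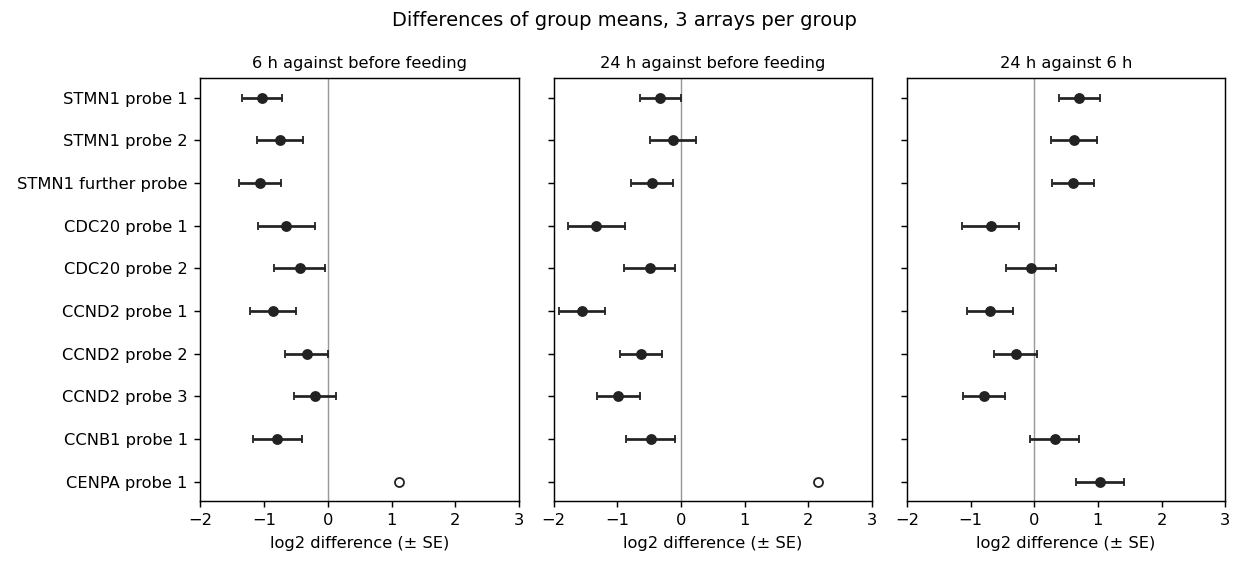
Log2 differences of group means with limma's SE (bars, left out where a group is only a bound), 3 arrays per group, for the fitted probes and the further STMN1 probe in the 3 comparisons; open points have a group with no array well above background. On this scale STMN1 lies left of 0 at 6 h and right of 0 at 24 h against 6 h, CCND2 and CDC20 probe 1 lie farthest left at 24 h against before feeding, and CENPA lies right of 0 throughout.

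The arrays of 1 time were not alike. Of the 9 fitted probes, 7 were highest in replicate 2 among the 6 h arrays, where 39.69% of all tested probes were, and 6 were highest in replicate 2 among the 24 h arrays, where 29.81% were. Before feeding, 5 were highest in replicate 3, where 22.34% of all tested probes were. Of 41 tested probes of other cell cycle genes, 25 were highest in 6 h replicate 2 and 22 in 24 h replicate 2. Markers of other blood cells, each list averaged on the log2 scale, differed between the same arrays. T cell markers (9 of 15 genes tested) averaged 1.67, 2.13 and 1.02 at 6 h and 2.32, 2.27 and 2.24 at 24 h, against 2.40, 2.28 and 2.68 before feeding. Neutrophil markers, of which 2 of 10 were tested (LTF and NCF1), averaged 7.26, 4.995 and 8.03 at 6 h and 4.18, 4.27 and 4.83 at 24 h, against 2.81, 3.50 and 3.47 before feeding. At 6 h replicate 2 thus had the highest T cell and the lowest neutrophil marker level of its group, with STMN1, CDC20, CCNB1 and CCND2 probe 1 at their highest.

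Monocyte markers (4 of 8) averaged 5.96, 5.48 and 7.19 at 6 h and 4.47, 4.75 and 5.93 at 24 h, against 3.91, 3.92 and 4.45 before feeding. NK and cytotoxic cell markers (2 of 8) averaged -1.01, 0.02 and -1.02 at 6 h, against 0.09, 0.37 and 1.25 before feeding. The red cell precursor list was read by HBE1 alone, an embryonic globin gene, at 6.78, 7.42 and 6.52 at 6 h and 6.74, 6.67 and 5.47 at 24 h, against 6.97, 7.51 and 7.15 before feeding. All 24 h arrays were below those before feeding. Platelet markers (3 of 7) ranged over 4.48 to 5.45 at 6 h, 3.97 to 5.47 at 24 h and 3.40 to 5.68 before feeding.

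The first STMN1 probe followed the T cell list over the 9 arrays with r = 0.93 (rho = 0.88; r = 0.91 without the 2 arrays farthest from its median) and ran opposite to the neutrophil list with r = -0.94 (rho = -0.88; r = -0.64 without those 2). The second STMN1 probe had r = 0.89 with the T cell list, and 0.48 without its 2 farthest arrays. CCNB1 probe 1 had r = 0.69 with the T cell list, 0.85 with the NK and cytotoxic cell list and -0.76 with the neutrophil list. For CDC20 probe 1 the r with the T cell list was 0.20, for CCND2 probe 1 it was 0.37 and for CENPA -0.17. With HBE1 the r of these probes was larger in size. CCND2 probe 1 had r = 0.89 (rho = 0.90, and r = 0.85 without its 2 farthest arrays). CDC20 probe 1 had r = 0.69 (rho = 0.73, and r = 0.97 without its 2 farthest). CENPA ran opposite to HBE1, with r = -0.71 (rho = -0.83, and r = -0.78 without its 2 farthest). CDC20 probe 2 did not single out HBE1, with r = 0.60, against 0.61 with the NK and cytotoxic cell list and 0.62 with the platelet list. CCND2 probes 2 and 3 had r = 0.71 and 0.78 with HBE1, and 0.66 and 0.29 without their 2 farthest arrays. All points share arrays and scaling, and 3 times are pooled. The part of blood cell makeup in the differences was not tested. At 24 h, the T cell list lay at the low end of its range before feeding or just below it while HBE1, CCND2 probe 1 and CDC20 probe 1 had their lowest means on this scale.

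**Figure D3:**
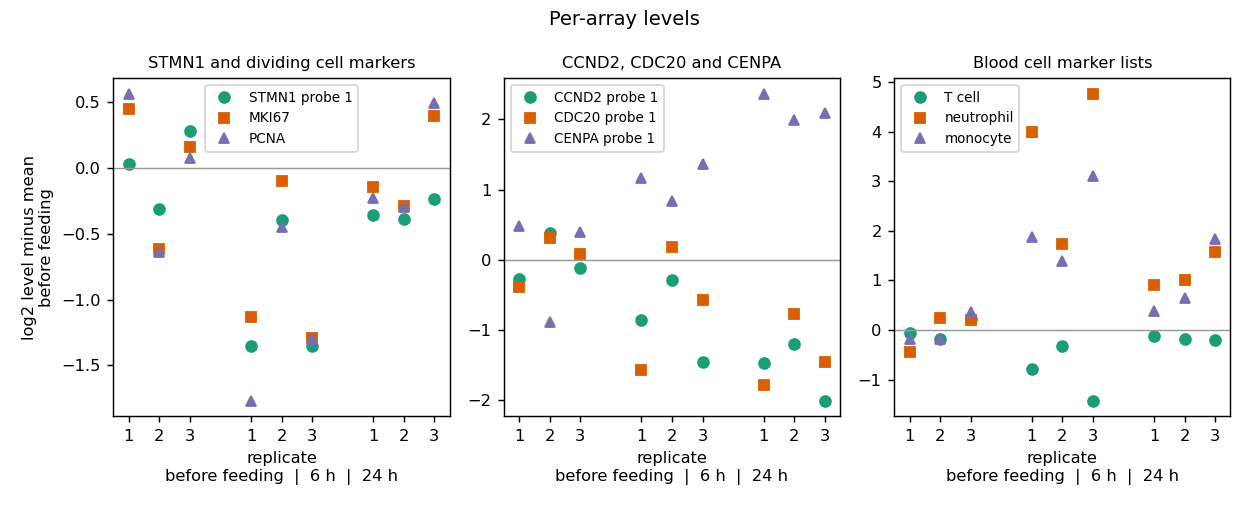
Log2 levels on each of the 9 arrays minus the mean before feeding, for STMN1 with MKI67 and PCNA (left), for CCND2, CDC20 and CENPA (middle) and for the mean of T cell, neutrophil and monocyte markers (right). Points are arrays in the order of time and replicate number. At 6 h, replicate 2 lies apart from replicates 1 and 3 for STMN1, MKI67 and PCNA, and its neutrophil level is the lowest of the 3.

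For each gene, the 3 most alike of 1181 other genes were taken by Pearson r over the 9 arrays. For STMN1 probe 1 they were KLRK1, a receptor of NK and T cells (r = 0.98), ADSSL1, an adenylosuccinate synthase (0.96), and SCG5, a secretory granule protein (0.94). For CDC20 they were OASL, an interferon-induced gene (0.94), P14ARF, a tumour suppressor that holds back MDM2 (0.93), and COX7A2, a subunit of cytochrome c oxidase (0.93). For CCND2 they were ROMO1, a mitochondrial membrane protein (0.98), EDN3, an endothelin (0.97), and DGKA, a diacylglycerol kinase of T cells (0.96). CCNB1 was most like BUB1, a kinase of the spindle checkpoint (0.93), then RPL4, a ribosomal protein (0.92), and MT-2B, a metallothionein (0.92). CENPA was most like SLC6A14, an amino acid transporter (0.93), PSEN2, a presenilin (0.90), and CTSK, a cathepsin (0.85). These points share arrays, scaling and the 3 times.

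Other genes of the division cycle were taken from a list of 171, of which 56 had a named probe and 35 genes, on 41 probes, were tested. By limma 0 of the 41 passed an adjusted p of 0.05 in any comparison, the smallest adjusted p being 0.0771 at 6 h, 0.278 at 24 h, each against before feeding, and 0.112 between 24 h and 6 h, that of CDC25C, which entered the fit through the 6 h arrays alone. At 6 h, 27 of 41 had lower values than before feeding with a median of -0.34, against 47.39% lower and a median of 0.05 over all tested probes. At an unadjusted p under 0.05, 11 were lower and 5 higher, where 10.9% and 14.7% of all tested probes were. With spike-in centring 23 of the 41 were lower at 6 h. Leaving out 6 h replicate 2 gave a median of -0.60, and leaving out 6 h replicate 3 gave -0.18. Of the 5 higher ones, E2F3 and CDC25C entered the fit through the 6 h arrays alone and NEK2 through the 24 h arrays alone. A probe of FZR1 entered through the arrays at 6 h and 24 h. The filter favoured probes that were bright in those groups, so nothing is read from the p-values of these probes. Of the 11 lower ones, ANLN, PRC1 and another probe entered through the arrays before feeding and at 24 h, and BUB1B through the 24 h arrays alone. They were brighter in those groups than at 6 h, and the ANLN probe had the smallest adjusted p at 6 h. Nothing is read from the p-values of these lower ones either.

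At 24 h, 32 of 41 had lower values than before feeding (median -0.18), against 50.89% and a median of -0.01 over all tested probes, and 4 were lower and 1 higher at an unadjusted p under 0.05 (8.56% and 5.32% of all tested probes). Without before feeding replicate 3, 24 of 41 were lower at 24 h (median -0.11), and without before feeding replicate 2 the median was -0.36. Spike-in centring left 1 of the 41 lower at 24 h. Against the median of all tested probes 31 were lower, a count that a change of centring cannot alter. Other settings did alter it: it was 23 without 24 h replicate 1, 24 without before feeding replicate 3 and 28 with quantile normalization. Comparing 24 h with 6 h, 20 of 41 were lower (median 0.01), and 6 were higher and 2 lower at an unadjusted p under 0.05, where 7.97% and 13.6% of all tested probes were. The 2 lower ones, CDC25C and E2F3, entered the fit through the 6 h arrays alone. BUB1B, among the 6 higher, and NEK2, the 1 higher at 24 h against before feeding, entered through the 24 h arrays alone. ANLN, also among the 6, entered through the arrays before feeding and at 24 h. Each entered where it was bright, so nothing is read from these p-values.

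The markers by which dividing cells are usually told were present. Probes of MKI67 (2), TOP2A (2), PCNA and BIRC5 were well above background on all 9 arrays, while CDK1 and TYMS had no named probe. MKI67, the Ki-67 antigen, was at 1.89, 2.92 and 1.73 at 6 h, against 3.47, 2.41 and 3.18 before feeding, and at 2.88, 2.73 and 3.41 at 24 h. Replicates 1 and 3 were low at 6 h, as for STMN1, and the 24 h arrays of MKI67 lay within the range before feeding; the difference at 6 h was -0.84 ± 0.40 (limma adjusted p = 0.214). BIRC5, an inhibitor of apoptosis that also serves the chromosomal passenger complex, differed by -0.35 ± 0.62 at 6 h.

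Counts by role are on the 75th percentile scale, and those for 24 h do not hold with spike-in centring, by which 1 of the 41 was lower. Among genes of DNA replication, 7 of 8 tested probes had lower values at 6 h (median -0.44) and 8 of 8 at 24 h (median -0.38). PCNA, the sliding clamp of DNA polymerase, was at -0.68, 0.65 and -0.21 at 6 h, against 1.66, 0.45 and 1.17 before feeding. It was lower in 2 of 3 arrays, and back in the earlier range at 24 h with 0.86, 0.80 and 1.59. The difference was -1.17 ± 0.42 at 6 h (limma adjusted p = 0.133) and 1.16 ± 0.42 at 24 h against 6 h (limma adjusted p = 0.161). PRIM1, the catalytic subunit of DNA primase, differed by -1.67 ± 0.43 at 6 h (limma adjusted p = 0.0810).

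Among genes of the centromere, chromosomes and cytokinesis, 10 of 11 probes had lower values at 6 h (median -0.85) and 10 of 11 at 24 h (median -0.37). ANLN (anillin), a scaffold of the contractile ring, was at -2.41, -2.09 and -4.01 at 6 h, against -1.03, -0.94 and -0.70 before feeding, a difference of -1.94 ± 0.46 (limma adjusted p = 0.0771). That probe was well above background on 2 arrays at 6 h, so part of its 6 h mean is background. A second ANLN probe did not follow it, with 0.23 ± 0.40. PRC1, which bundles microtubules of the midzone, differed by -1.37 ± 0.40 at 6 h (limma adjusted p = 0.0944), when it was well above background on 1 array.

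At 24 h the same role held TOP2A, the topoisomerase that untangles sister chromatids, at -1.47, -0.50 and -1.14 with one of its probes, against -0.70, 0.44 and 0.39 before feeding. Its difference was -1.08 ± 0.39 (limma adjusted p = 0.288), and the other TOP2A probe differed by -0.37 ± 0.47. SPC24, a subunit of the kinetochore's NDC80 complex, differed by -0.96 ± 0.40 at 24 h (limma adjusted p = 0.334), with no overlap between 1.93, 2.41 and 2.47 at 24 h and 3.25, 3.15 and 3.29 before feeding.

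The anaphase-promoting complex and its partners, CDC20's own setting, had 4 of 8 probes lower at 6 h (median -0.08) and 5 of 8 at 24 h (median -0.14). PTTG1 (securin), which the complex destroys to release the sister chromatids, was at 2.97, 3.31 and 1.55 at 6 h, against 4.20, 3.87 and 4.04 before feeding, a difference of -1.43 ± 0.42 (limma adjusted p = 0.0944). Its subunits ANAPC13 and ANAPC11 also had lower values, ANAPC13 by -1.32 ± 0.39 at 6 h (limma adjusted p = 0.0960) and ANAPC11 by -0.79 ± 0.27 at 24 h (limma adjusted p = 0.278). FZR1, which takes CDC20's place as activator at the end of mitosis, had higher values at 6 h on all 4 of its probes, by 0.41 to 1.00, the last on a probe that was above background on 1 array before feeding. That probe entered the fit through the arrays at 6 h and 24 h.

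Genes of the mitotic kinases, cyclins and checkpoint had 4 of 7 probes lower at 6 h and 6 of 7 at 24 h, with medians of -0.35 and -0.15. BUB1B, a component of the checkpoint that holds CDC20 back, was at -5.24, -2.17 and -4.18 at 6 h, against -1.25, -3.38 and -1.26 before feeding, with overlap (-1.90 ± 0.77, limma adjusted p = 0.165). It was well above background on 1 array at 6 h and 2 before feeding. CDC25C, the phosphatase that activates CDK1, was at -1.82, -1.33 and -0.58 at 6 h and -2.94, -2.36 and -2.72 at 24 h, against -2.45, -2.67 and -2.44 before feeding. NEK2, a centrosome kinase, stood well above background on 0 arrays before feeding, 2 at 6 h and 3 at 24 h. The bound from its group means was 1.06-fold higher at both later times. At 6 h the groups overlapped, with replicate 2 at -2.99 against -2.96 on the highest array before feeding, so no rise is read there. At 24 h they did not overlap, for a probe that entered the fit through the 24 h arrays alone.

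Of the 2 tested probes of other G1 genes, 1 had higher values at 6 h (median 0.67) and both did at 24 h (median 0.71). CCND3, the cyclin nearest to CCND2 in role, was at 2.80, 1.98 and 4.29 at 6 h, against 0.84, 1.93 and 1.88 before feeding, a difference of 1.47 ± 0.53 (limma adjusted p = 0.130), where CCND2 had lower values. Of the RB and E2F family 1 of 5 was lower at 6 h (median 0.23) and 3 of 5 at 24 h (median -0.15). E2F3, which drives genes of S phase, stood well above background on 0 arrays before feeding. The bound from its group means was 2.71-fold higher at 6 h, for a probe that entered the fit through the 6 h arrays alone, where it was high. CDKN1B, an inhibitor of cyclin-dependent kinases, differed by 0.91 ± 0.38 at 24 h against 6 h (limma adjusted p = 0.199).

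**Figure D4:**
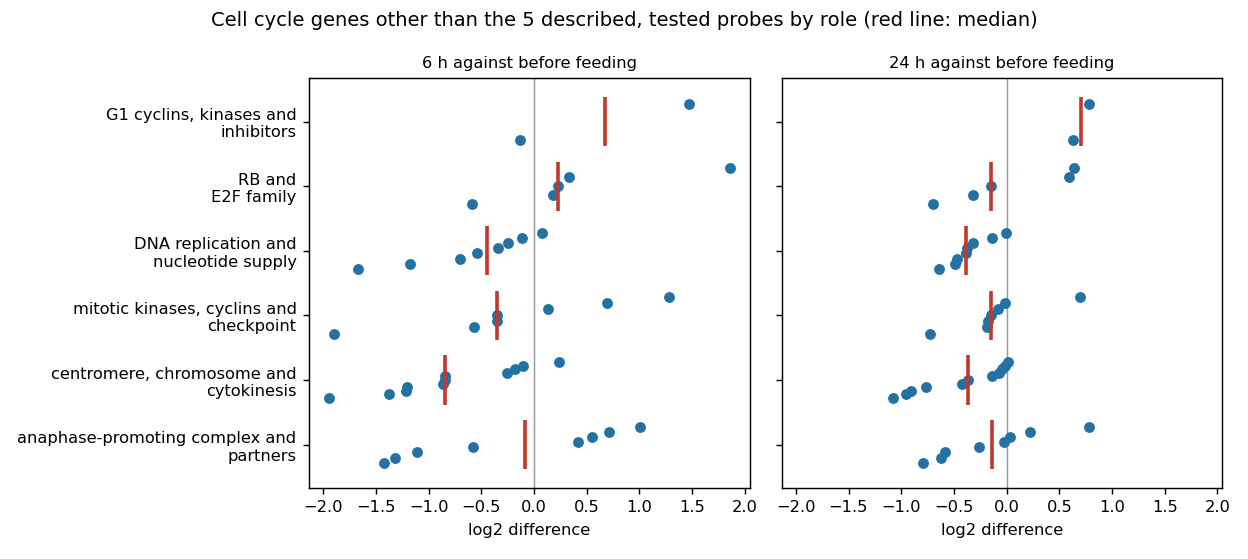
Log2 differences of the 41 tested probes of other cell cycle genes at 6 h and 24 h against before feeding, by role. Points are probes, spread vertically for legibility, and red lines are role medians. Probes of replication and of the centromere and cytokinesis lie mostly left of 0 at both times, and those of the RB and E2F family mostly right of 0 at 6 h; with spike-in centring 1 of the 41 lies left of 0 at 24 h.

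The count of calls in this list turned on 1 array. Without 6 h replicate 2, limma called 11 of the 41 probes lower and 2 higher at 6 h at an adjusted p under 0.05, where 4.82% of all tested probes were called lower and 7.29% higher. The lower ones were probes of ANAPC11, ANAPC13, ANLN, BUB1B, PCNA, PRC1, PRIM1, PRIM2, PTTG1, SPC24 and TOP2A, and the higher ones were CCND3 and E2F3, of which E2F3 entered the fit only through the 6 h arrays where it was high and is no independent call. Of the lower ones, ANLN and PRC1 entered through the arrays before feeding and at 24 h, and BUB1B through those at 24 h alone. They were brighter there than at 6 h, so their calls are not independent either. ANLN then differed by -2.32 ± 0.46 (limma adjusted p = 0.0253) and PCNA by -1.54 ± 0.41 (limma adjusted p = 0.0465). At 24 h against 6 h, 2 of the 41 were then called, BUB1B higher and CDC25C lower, each having entered the fit only through the group where it was high, where 2.4% of all tested probes were called higher and 6.53% lower. At 24 h against before feeding 0 of the 41 and 0% of all tested probes were called. This array was singled out after its values had been seen, and the 6 h group then rests on 2 arrays.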

How the data were processed

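Whole blood was collected in PAXgene tubes, and Cy3-labelled cRNA from 0.5 µg of RNA was hybridised to 1 one-colour Agilent porcine array per sample, per the labels' protocols. The deposited scanner files hold spot intensity, background-subtracted and not normalized between arrays per the file headers, which name Feature Extraction 10.5.1.1; the submitters' processing notes name 9.5.3.1. Deposited series-wide values of 43566 probes are intensity too; their making was not given in the sources used here, and they served as an alternative. Members and gene lists were chosen with earlier results of these data known.

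Control spots and outlier spots were left out, spots of a probe averaged, and 7 probes dropped. Log2 processed signal was centred on each array's 75th percentile. All 9 arrays entered 1 limma fit (3.58.1, R 4.3.3) with group as the term and 6 residual degrees of freedom, over 19783 probes, with Benjamini-Hochberg adjustment and a threshold of 0.05. The fit was tested on simulated data. A group with no array well above background was given a bound: the brighter group's mean against the mean, per array, of the higher of the probe's signal and the lowest signal well above background. Named list genes are up to 2 per role, comparison and direction with the largest difference at an unadjusted p under 0.05; the markers MKI67 and BIRC5 are named as checks, and the list genes called without 6 h replicate 2 were named after their values were seen. Also tried were quantile and median scaling, spike-in centring, the deposited series-wide values, normexp background correction (offset 50), other filters, a replicate block, fewer arrays and leaving out each array. Tables and plots used Python 3.11.15, pandas 2.3.3, numpy 2.4.6, matplotlib 3.10.9 and the R package data.table (version 1.17.8). No genome was used. The values of some genes were left out.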

Additional observations from a re-analysis of the deposited data

How the results depend on the processing

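At 6 h, limma's 5 calls over all tested probes became 8 with quantile normalization, 8 with the deposited table, 613 with spike-in centring and 0 with normexp, without a filter on dim probes, with only probes above background on all 9 arrays, with a percentile over those probes (added after seeing the data) or with only the 6 arrays compared; leaving out 1 array gave 0 to 2396, the highest without 6 h replicate 2. At 24 h against before feeding, 0 became 6 with quantile normalization, 6 with the deposited table and 5821 with spike-in centring. At 24 h against 6 h, leaving out 1 array gave 0 to 1767. Of the 41 list probes, 0 calls at 6 h became 1 with spike-in centring and 0 to 13 when 1 array was left out, 0 at 24 h became 9 with spike-in centring, and 0 at 24 h against 6 h became 0 to 2, the highest without 6 h replicate 2. Samples that share a replicate number correlated by -0.20 to 0.64 in their deviations from group means, and not every one was closest to its own number, so the numbers were not taken to pair samples; with a replicate block, 620 probes were called at 6 h, and 1 of the list.

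With spike-in centring the 24 h differences from before feeding were 0.68 and 0.88 for STMN1 probes 1 and 2, -0.33 and 0.51 for CDC20 probes 1 and 2, 3.15 for CENPA, -0.55, 0.38 and 0.018 for CCND2 probes 1 to 3 and 0.53 for CCNB1. Those at 24 h against 6 h were 1.49 and 1.40, 0.10 and 0.73, 1.81, 0.088, 0.49 and -0.008, and 1.098, in the same order of probes. With normexp CENPA differed by 0.18 at 6 h and 0.54 at 24 h from before feeding and by 0.36 at 24 h from 6 h, and CCND2 probe 3 by -0.46 at 24 h from 6 h; the cause of these shifts was not tested. Scan could not be fitted as a block, since each scan holds 1 group.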
